A study of Mus musculus with 9 samples.

Results

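H2-M3 and H2-K2 are a pair of MHC class I genes on mouse chromosome 17 whose promoters carried weak NLRC5 peaks in T cells. They were selected from the MHC class I genes and on measured values. Among these genes, they have a low-scoring peak within 5 kb of the transcription start site (TSS) in the WT peak lists and none in the other lists. The presence, absence, score and rank of these peaks are therefore given as a description, with no test. Both are among 55450 genes of the GENCODE M21 annotation, and they account for 10 of the 8593 peaks in 7 deposited lists, 1 peak per gene in each of 5 WT lists. NLRC5 chromatin immunoprecipitation sequencing (ChIP-seq) was performed with a rabbit polyclonal antibody against mouse NLRC5 on T cells of mice aged 6 to 12 weeks. WT and Nlrc5F/F cells, in which the Nlrc5 gene is flanked by recombination sites but functional, and Nlrc5-/- cells, which lack NLRC5, were on a C57Bl/6 (H2b) background, whereas Rfx5-/- cells, which lack a subunit of the RFX complex, were on a mixed Sv129/C57Bl/6 (H2b) background. For each genotype the chromatin of 5 mice was combined, which gives 1 library and no replicate animals. The 5 WT lists, A to E, come from pseudo-replicates, that is, subsets of reads drawn from the same WT library, and they vary with the reads drawn, not with the animals. Nlrc5-/- reads were the control in peak calling, and neither that genotype nor the complete WT data set has a list that was analysed here. The lists hold no expression values, so the T cell label could not be compared with marker genes.

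MHC class I molecules display peptides to CD8+ T cells on a heavy chain paired with beta-2 microglobulin. NLRC5 does not bind DNA by itself but is recruited to class I promoters by a protein assembly, the enhanceosome, which contains the RFX complex and NF-Y and occupies a composite element of S, X and Y boxes, the SXY module. H2-M3 encodes a non-classical class I molecule that presents peptides carrying an N-formyl group, a mark of bacterial and mitochondrial proteins. H2-K2 lies next to the classical class I gene H2-K1 and is annotated as a transcribed unprocessed pseudogene.

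The promoters of both genes are shown because the position and the letters of the SXY module are what the peaks can be set against. The first 2 lines give the 200 bases that end at the GENCODE TSS, on the strand of the gene, read from GRCm38 (C57BL/6J). The other lines give the modules of H2-K1, H2-Q4 and H2-Q6, 3 promoters with strong NLRC5 peaks. Capitals mark the S, X and Y boxes, in that order.
H2-M3, chr17:37270021-37270220, forward strand: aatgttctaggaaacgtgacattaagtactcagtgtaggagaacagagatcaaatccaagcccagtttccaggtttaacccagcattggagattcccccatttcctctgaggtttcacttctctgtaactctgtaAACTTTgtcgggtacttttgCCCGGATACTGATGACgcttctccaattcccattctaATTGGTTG
H2-K2, chr17:33978827-33979026, reverse strand: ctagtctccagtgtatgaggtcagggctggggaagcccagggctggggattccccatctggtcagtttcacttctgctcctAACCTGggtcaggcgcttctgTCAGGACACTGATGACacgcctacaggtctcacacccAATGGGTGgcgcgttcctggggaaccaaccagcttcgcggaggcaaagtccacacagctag
H2-K1, chr17:34000356-34000421, reverse strand: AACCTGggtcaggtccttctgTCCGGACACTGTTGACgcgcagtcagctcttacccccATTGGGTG
H2-Q4, chr17:35379480-35379545, forward strand: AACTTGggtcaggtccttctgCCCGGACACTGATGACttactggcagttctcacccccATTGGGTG
H2-Q6, chr17:35424714-35424778, forward strand: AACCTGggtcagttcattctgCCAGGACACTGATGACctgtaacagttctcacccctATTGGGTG

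The H2-M3 gene (ENSMUSG00000016206) occupies 37270220 to 37274484 on the forward strand and has its TSS at 37270220. Its peaks spanned 37269980 to 37270253 in WT A, 37270075 to 37270299 in WT B, 37270120 to 37270252 in WT C, 37269984 to 37270227 in WT D and 37270019 to 37270258 in WT E. Each of them contained the TSS and reached into exon 1, by between 8 and 80 bases, and the WT B peak also covered coding sequence. Peak centres were 33 to 114.5 bp upstream of the TSS, with a median of 81.5 bp. Widths were 274 bp, 225 bp, 133 bp, 244 bp and 240 bp in WT A to WT E. The 5 intervals had 108 bp in common, from 37270120 to 37270227, of the 320 bp that they covered together. Of the 10 pairs of lists, 8 had H2-M3 peaks that overlapped over at least 50% of the longer peak.

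The H2-K2 gene (ENSMUSG00000067203) occupies 33974659 to 33978827 on the reverse strand, with its TSS at 33978827. Its peaks spanned 33978902 to 33979067 in WT A, 33978907 to 33979086 in WT B, 33978878 to 33979033 in WT C, 33978925 to 33979081 in WT D and 33978902 to 33979057 in WT E. They were more alike in extent than the H2-M3 peaks, with widths of 166 bp, 180 bp, 156 bp, 157 bp and 156 bp, and all 10 pairs overlapped over at least 50% of the longer peak. No H2-K2 peak contained the TSS or overlapped an annotated gene, the nearest edge being 51 to 98 bp upstream. Centres were 128.5 to 176 bp upstream of the TSS, with a median of 157.5 bp. The 5 intervals had 109 bp in common, from 33978925 to 33979033, of 209 bp.

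**Figure D1:**
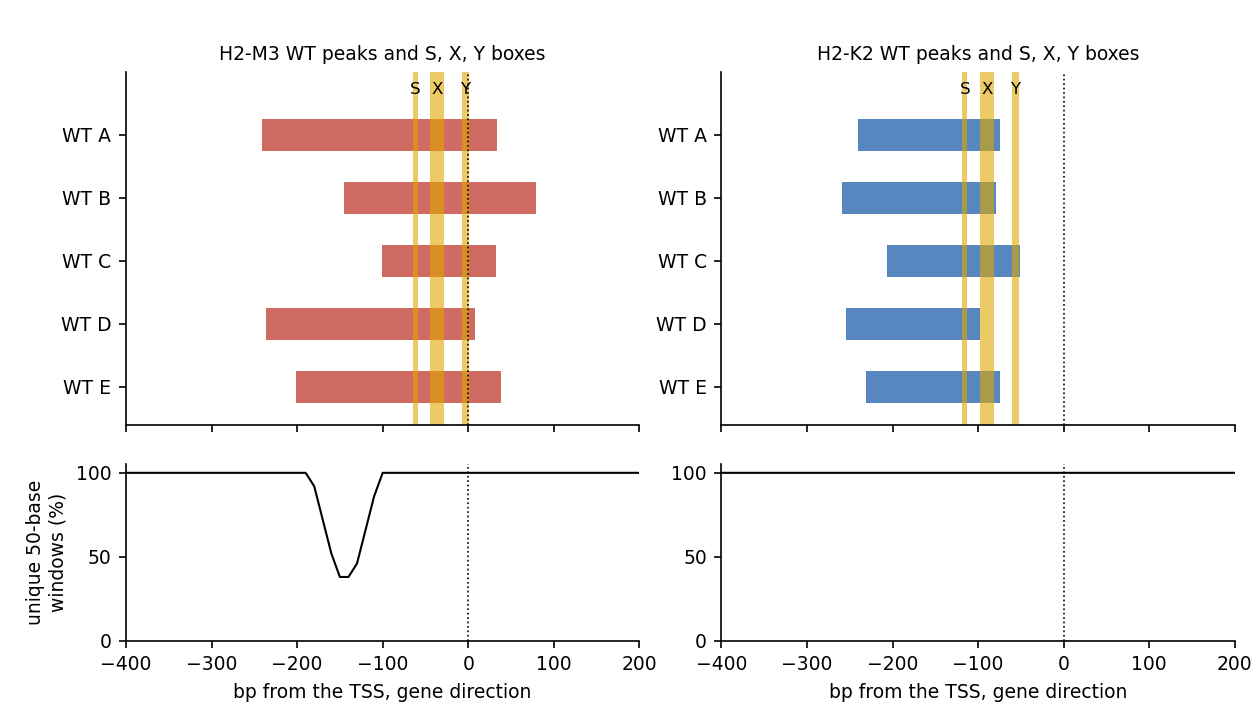
Upper panels: extent of the H2-M3 and H2-K2 peaks in the 5 WT lists (bars), in bp from the TSS in the direction of the gene, with the S, X and Y boxes as yellow bands and the TSS as a dotted line. Lower panels: percentage of 50-base windows over each position that occur once in the genome. H2-M3 peaks span all 3 boxes and the TSS in each list, while H2-K2 peaks lie upstream of the TSS and only the WT C peak reaches over the Y box.

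The score of a peak is the −log10 of the p-value given by the peak caller, and the lists begin slightly above 3. For H2-M3 the score was 10.56 in WT A, 7.42 in WT B, 9.40 in WT C, 10.22 in WT D and 15.10 in WT E. It was thus lowest in WT B and highest in WT E, a 2.04-fold range, with a median of 10.22. For H2-K2 the scores were 9.45, 9.79, 9.81, 10.36 and 13.52 in WT A to WT E, with a median of 9.81 and a range of 1.43-fold. The scores of WT A to WT D were thus close to each other for H2-K2, and WT E was again the highest. H2-M3 scored above H2-K2 in 2 of the 5 lists, WT A and WT E, and below it in the other 3, so that the order of both genes changed with the sampling of reads from the same library.

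In rank within the list, where 1 is the highest score, H2-M3 was 25 of 459 peaks in WT A, 61 of 529 in WT B, 32 of 1436 in WT C, 27 of 1043 in WT D and 17 of 1207 in WT E. H2-K2 ranked 30, 27, 31, 26 and 21 in the same lists. The median rank was 27 for both genes. Both genes thus held similar ranks in lists of 459 to 1436 peaks, apart from the H2-M3 peak of WT B, which was 34 ranks below that of H2-K2.

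Both genes are set here against 9 promoters with strong NLRC5 peaks, those of B2m, which encodes beta-2 microglobulin, of Tap1, which encodes a subunit of the peptide transporter, and of the class I genes H2-D1, H2-T22, H2-K1, H2-T10, H2-Q7, H2-Q4 and H2-Q6. H2-M3 and H2-K2 were below all 9 in each of the 5 WT lists, a separation set by their selection as weakly occupied. The lowest of the 9 was Tap1 in WT A, WT C and WT D and H2-T22 in WT B and WT E, with scores between 16.6 and 27.7 and ranks between 9 and 13. That lowest score was 1.10 to 3.73 times that of H2-M3 and 1.23 to 2.83 times that of H2-K2, the smallest ratios being those of WT E. Between the lowest of the 9 promoters and H2-M3 lay 3 to 51 other peaks, and 7 to 19 lay between it and H2-K2. Relative to the median of the 9 promoters, which was 88.2 to 112, H2-M3 reached 6.65% to 17.1% and H2-K2 8.78% to 15.3%. H2-K1, the neighbour of H2-K2, scored 8.80 to 15.3 times as high as H2-K2. The median width of the 9 strong peaks was 656 to 700 bp in the WT lists, more than that of either gene. H2-Q6 was an exception among the 9, since its peaks, 119 to 178 bp wide, were narrower than those of H2-M3 in all 5 lists and narrower than those of H2-K2 in all but WT A.

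**Figure D2:**
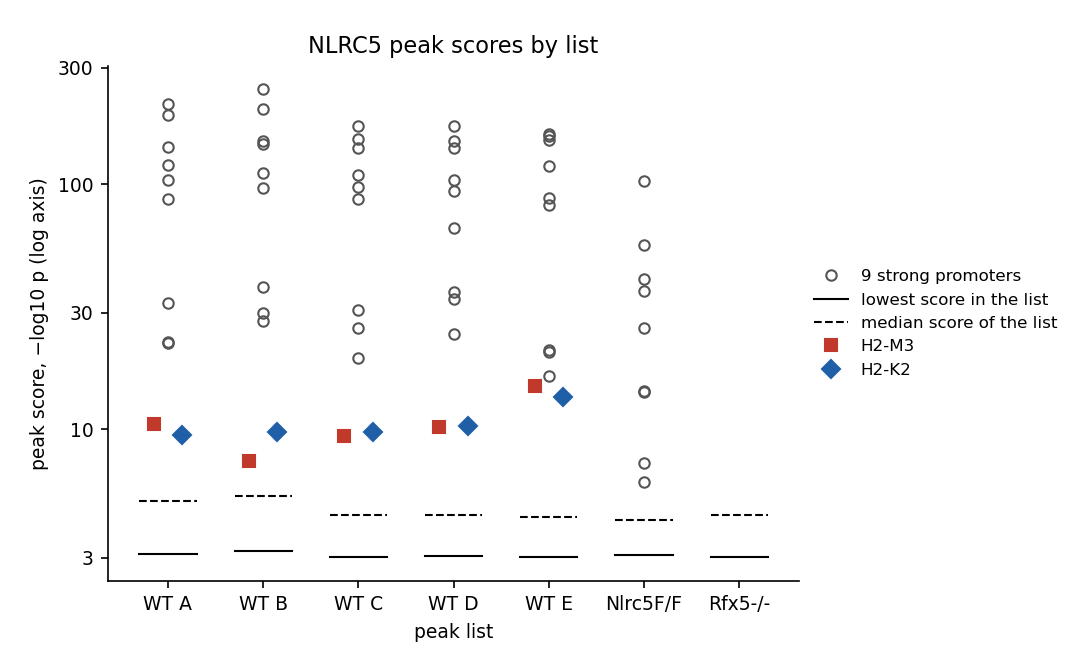
Peak score (−log10 p, log axis) in each of the 7 lists for H2-M3 (red squares), H2-K2 (blue diamonds) and the 9 strong promoters (open circles), with the lowest score (solid line) and the median score (dashed line) of each list. Both genes lie between the median of the list and the lowest strong promoter in each WT list, and neither has a peak in Nlrc5F/F or Rfx5-/-, where the strong promoters are present and absent, respectively.

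Neither gene had a peak within 5 kb of its TSS among the 1949 peaks of Nlrc5F/F or the 1970 peaks of Rfx5-/-. The 9 strong promoters were all in the Nlrc5F/F list, and 0 of them were in the Rfx5-/- list. At these promoters the Nlrc5F/F score was lower than the WT median, by a ratio that ran from 0.147 at H2-Q4 to 0.596 at H2-D1, with a median of 0.325. The lowest score listed in Nlrc5F/F was 3.07, and absence of H2-M3 and H2-K2 from that list is not a measurement that NLRC5 was absent there. The part of peak height in their absence from either list was not tested, and in the Rfx5-/- list the genotype and the strain background cannot be told apart. In the 129 strain sequences included with GRCm38, the covered interval had 0 differences from C57BL/6J at H2-M3 (129S1/SvImJ, 320 of 320 bp identical) and 0 at H2-K2 (129X1/SvJ, 209 of 209 bp). These are reference sequences of the intervals alone, not of the mice used, and an effect of strain was not tested.

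A peak within 5 kb of the TSS in all 5 WT lists was found for 31 of 55450 genes, or 0.0559%, H2-M3 and H2-K2 included. When overlapping peaks of all 7 lists were merged into sites, 4202 sites held a WT peak. Of these, 32, or 0.762%, were present in all 5 WT lists. By median WT score, H2-M3 and H2-K2 were the 19th and 20th of these 32 sites. Of the 32 sites, 11 had no peak in Nlrc5F/F or Rfx5-/-, which is 34.4%, so that the combination seen at both genes was shared with 9 other sites. Since the selection used this contrast, nothing is read from these percentages. Of all 32 sites, 10 had a peak in Rfx5-/- and 17 in Nlrc5F/F. Of the 14 sites at or below the median of H2-M3, which include both genes, 5 had a peak in Rfx5-/- and 3 in Nlrc5F/F. Of the 18 sites above it, which include the 9 strong promoters, 14 had a peak in Nlrc5F/F.

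By the mean absolute difference in log2 score over the 5 WT lists, H2-M3 and H2-K2 were each the nearest of the other 31 sites to the other, with a difference of 0.16, or 1.12-fold. The next nearest to H2-M3 were a site on chromosome 1 whose nearest TSS is that of the processed pseudogene Gm37070 (1.22-fold) and a site on chromosome 5 nearest to Gm17019 (1.25-fold). For H2-K2 they were a site at 35439383 to 35439569 on chromosome 17, 321 bp from the TSS of H2-Q7 (1.18-fold), and the Gm37070 site (1.19-fold). The Gm17019 site was the only one of these with a peak in Nlrc5F/F, scoring 4.28.

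The module of each gene was placed with weight matrices made from the S, X and Y boxes of the 9 strong promoters. This placement returns an S, an X and a Y box for any sequence, so finding all of them is not a result. Promoter sequence was not used in the selection, but membership of the class I genes was. The S box of H2-M3 is AACTTT, 14 bases before the X box, whereas the S and X boxes are 15 bases apart at the 9 strong promoters and at H2-K2. With 16 bases in the X box, that of H2-M3 matches H2-Q4 at 15 positions and differs from it by C7T, counted from 1 at the 5′ end of the box. The Y box of H2-M3, ATTGGTTG, differs from that of H2-Q4 by G6T. At the positions where all 9 strong promoters have the same base, 4 in the S box, 8 in the X box and 4 in the Y box, H2-M3 has that base throughout.

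The S box of H2-K2 is identical to those of H2-D1, H2-K1, H2-Q6, H2-Q7 and Tap1. Its X box has 15 of 16 bases in common with H2-Q6 and H2-Q7 and 14 with H2-K1, from which it differs by C3A and T12A. In the Y box, H2-K2 reads AATGGGTG and differs from H2-K1 by T2A. That position is T at each of the 9 strong promoters, and at all of them but Tap1 it lies in the letters ATTGG, the reverse complement of the CCAAT box to which NF-Y is known to bind. H2-K2 thus has the shared base at 4 of 4 invariant positions of the S box, 8 of 8 of the X box and 3 of 4 of the Y box. Over all 66 bases of the module, spacers included, H2-K2 had 54 bases in common with H2-K1, and also 54 with H2-D1.

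In bits, the log2 odds of a box under the matrix against equal use of the 4 bases, the 3 boxes summed to 38.0 at H2-M3 and 42.2 at H2-K2. Among the 9 strong promoters, whose own boxes built the matrix, the sums ran from 38.4 at Tap1 to 50.2 at H2-Q6 and H2-Q7. H2-M3 was therefore just under the lowest of the 9, and H2-K2 was above 4 of them. The S box of H2-M3 scored 4.08, below the lowest of the 9 (7.25, H2-T22), while its X box at 24.7 was above 6 of the 9. At H2-K2 the S box was at the highest value of the 9, 10.41, and the Y box, at 8.64, was above Tap1 only. Among 55447 promoters scanned from 500 bp upstream to 50 bp downstream of the TSS on both strands, with S and X 10 to 20 bases apart, the best score of H2-K2 was the 6th highest and that of H2-M3 the 13th. H2-D1, whose module lies 230 to 295 bp downstream of the annotated TSS and so outside this window, ranked 5057th with a best score of 11.86. Of the 13 promoters down to H2-M3, 12 had a peak in all 5 WT lists, and H2-Q5, whose 3 boxes are those of H2-Q6, had a peak in 0 of the lists. Among the 12 are H2-M3 and H2-K2, selected for their WT peaks, and strong promoters whose boxes built the matrix. The others are Gm19684 and Gm6034, which lie beside H2-T10 and H2-T22 and have the same box scores. The count of 12 was thus set by these choices, and no link between module score and peaks is read from it. Within 1 kb of the TSS of H2-Q5, 40.1% of 50-base windows occur once in the genome, against 41.4% at H2-Q6 and 46.7% at H2-Q7, which had a peak in all 5 WT lists. Under the peaks the shares were 62.8% at H2-Q6 and 67.2% at H2-Q7, and H2-Q5 has no peak over which to count. The part of repeated sequence in the missing H2-Q5 peak was not tested.

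**Figure D3:**
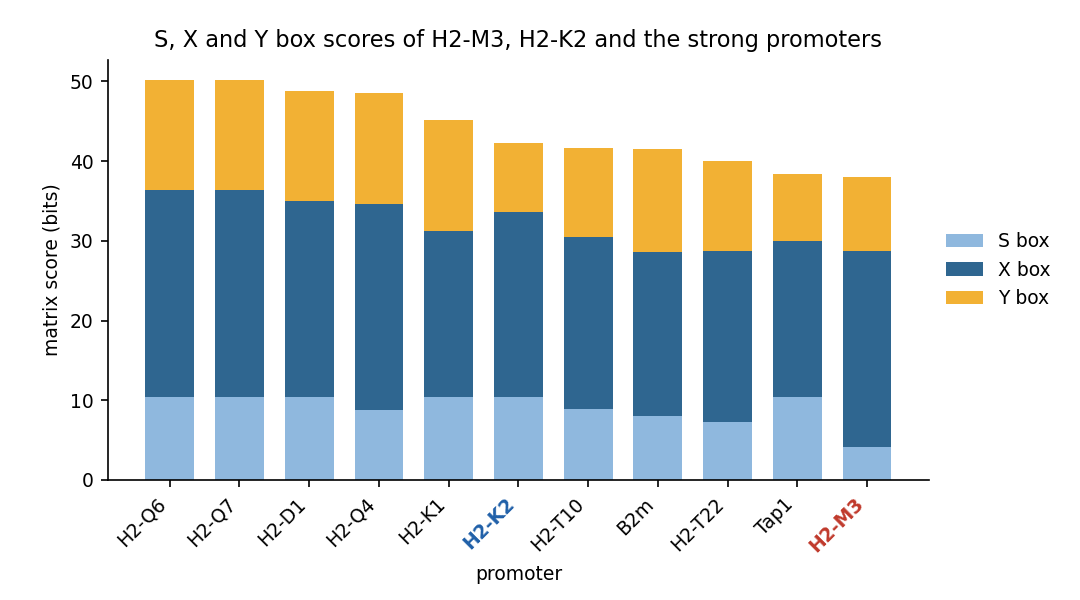
Matrix scores (bits) of the S, X and Y boxes, stacked, for H2-M3, H2-K2 and the 9 strong promoters, ordered by their sum. H2-K2, at 42.2, falls among the strong promoters, and H2-M3, at 38.0, falls just under Tap1, with the lowest S box of the 11 promoters, at 4.08.

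The letters were also searched as a pattern, with S as AAC, then C or T, then T and any base, X as 4 bases, GANA, 2 bases and GNTGAC, and Y as NTNGG, with 15 bases between S and X and 20 to 22 or 48 between X and Y. In the same window, 12 of 55447 promoters (0.0216%) matched on either strand. H2-K2 was among them, with a Y match 1 base downstream of the box shown above, and H2-M3 was not, since its S box is 1 base closer to the X box. With 10 to 20 bases allowed there, 14 promoters matched, H2-M3 included.

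Peaks and modules were close together at both genes. The X box centre was 36.5 bp upstream of the TSS at H2-M3 and 89.5 bp upstream at H2-K2. Peak centres were 2.5 to 78 bp from the X box centre at H2-M3, with a median of 45 bp, and 39 to 86.5 bp at H2-K2, with a median of 68 bp. All 5 H2-M3 peaks contained the whole module of 65 bases. At H2-K2 only the WT C peak contained all 66 bases, the others holding 21 to 44 of them, and the WT D peak ended before the X box. The H2-K2 peaks were thus displaced from the module in the upstream direction in all 5 lists. Displacement in itself was not particular to H2-K2, since at H2-T10 and H2-T22 the distances from peak centre to X box centre had medians of 220 and 180 bp. Their peaks nevertheless contained the whole module in all 5 lists. A peak that cuts off the module was also seen at H2-Q6. Its peaks contained the whole module in 2 of the 5 lists and the whole X box in 3, and were displaced downstream.

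Module scores were also read around the 32 sites in all 5 WT lists. The rest of the 4202 WT sites were not scanned, so these scores do not describe weak peaks in general. In windows centred on each site and as long as the promoters scanned, H2-M3 and H2-K2 held modules of 38.0 and 42.2 bits and the strong promoters 32.5 to 50.2. The remaining sites held lower scores, −5.90 to 11.03 bits over the 20 that could be scanned, with a median of 5.20, which is close to the median of all promoters, 5.80. The value of 32.5 is that of H2-T10, whose window does not reach its Y box, and its whole module sums to 41.7. In peak score H2-M3 and H2-K2 lay among the other weak sites of this set. Whole modules of the strong promoters ran from 38.4 to 50.2 bits, with H2-K2 inside this range and H2-M3 just under it. Both genes were chosen as class I genes and strong boxes built the matrix, so the contrast with the remaining sites is partly set by these choices. Both of the other sites on chromosome 17 flank the H2-Q7 peak, and their windows, with best scores of 6.36 and 7.43 bits, do not reach the H2-Q7 module at 35439058 to 35439122.

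**Figure D4:**
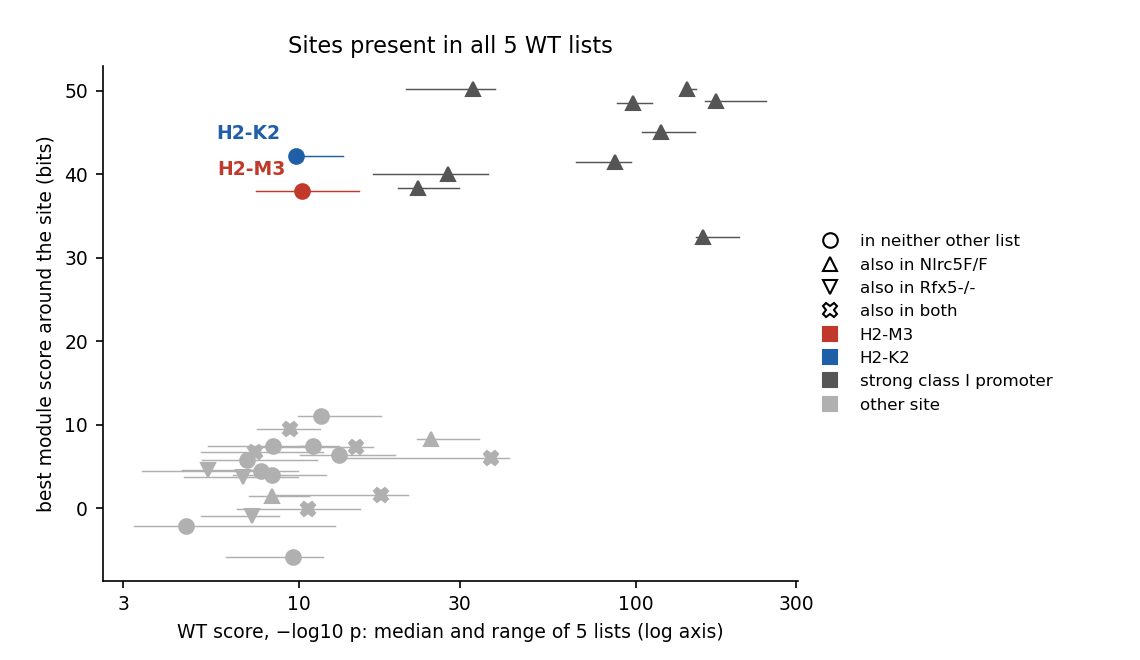
Best module score (bits, vertical axis) in a window around each site present in all 5 WT lists against its WT peak score (−log10 p, log axis), with the median as a symbol and the range of the 5 lists as a line. Symbols show presence in the Nlrc5F/F and Rfx5-/- lists. H2-M3 and H2-K2 lie at the WT scores of the other weak sites, which are at or below 11.03 bits. Their module scores lie within the plotted range of the strong promoters, whose lowest point is H2-T10, with its Y box outside the window. The 1 site for which no window of this length could be taken is left out.

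The promoters differed in their likeness to other class I promoters. From 500 bp upstream to 50 bp downstream of the TSS, H2-K2 was identical to H2-K1 at 86.9% of 495 aligned bases, with 35 bases as the longest identical run. With H2-D1 the identity was higher, 91.1%, over a shorter alignment of 224 bases that held a run of 46 identical bases. The window of H2-D1 ends before its module, so this alignment leaves the module out. From 250 bp upstream to 50 bp downstream, H2-K2 was 54.8% identical to H2-D1, with no run over 6 bases, and 84.1% identical to H2-K1. The shorter H2-D1 window also leaves out its module, while that of H2-K2 holds one, so the 54.8% does not compare the modules. Over the module itself, H2-K2 had 54 of 66 bases in common with H2-D1. In the longer window, H2-K2 was 83.3% to 83.8% identical to H2-Q4, H2-Q6 and H2-Q7, with a longest run of 38 bases, at H2-Q4. H2-M3 was at most 60.5% identical to any of the 9 strong promoters and 59.6% identical to H2-K2, with no identical run over 11 bases. The authors kept only reads that map to a single place, so the copies of each stretch were counted. Under the H2-K2 peaks 160 of 160 windows of 50 bases occur once in the genome. Under the H2-M3 peaks 240 of 271 did (88.6%), the others having 2 copies, and the 59 windows within the bases common to the 5 peaks were all unique. Under the peaks of H2-Q6, 62.8% of windows were unique.

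Short motifs, chosen after the sequences had been read, were counted from 250 bp upstream to 50 bp downstream on both strands, with overlaps allowed. ATTGG, which on the other strand reads CCAAT, occurred 3 times at H2-M3, the Y box included, 2 times at H2-K2, and in 38.5% of all promoters. At H2-K2, 1 of the matches reads CCAAT on the strand of the gene and overlaps the start of the Y box. GATTCCCC, a core of sites for NF-kappaB, and GTTTCNNTT, a core of sites for interferon regulatory factors, each occurred 1 time at both genes, against 0.813% and 6.22% of all promoters. TGACG, the core of sites for CREB-type factors, was found at H2-M3, where it overlaps the end of the X box, and not at H2-K2, and 15.9% of promoters hold it. TATAAA was found at neither gene, and is present in 17.1% of promoters. These matches describe letters, not binding.

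Among the other genes of the class I pathway, 38 of a list of 42 were found by symbol in the annotation. Of these 38, 9 had a promoter peak in all 5 WT lists, and these are the strong promoters. Psmb8 and Psmb9, which encode subunits of the immunoproteasome, each had a promoter peak in 1 WT list, and the remaining 27 had none. At Psmb9, which starts next to Tap1, this was the peak of Tap1, which was within 5 kb of the Psmb9 TSS in all 5 WT lists. The 11 other H2-M genes of the list had no peak within 5 kb of the TSS in any WT list, unlike H2-M3. The peaks nearest to H2-K2 outside 5 kb were those of H2-K1, 21228 to 21394 bp from its TSS in the 5 WT lists and in Nlrc5F/F. In Rfx5-/- the nearest was a peak with a score of 6.11 at 33968830 to 33969009, 9818 bp from the TSS of H2-K2 on its downstream side. No WT list had a peak at that place. Around H2-M3 the closest peak outside 5 kb was 23341 bp away, in WT C only, with a score of 4.48, and in the 6 other lists the nearest was at least 192023 bp away.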

How the data were processed

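H2-M3 and H2-K2, the 9 strong promoters and the gene lists were chosen with earlier results of these data known. According to the methods, the authors mapped reads to GRCm38 with Bowtie 0.12.7, kept uniquely placed reads and called peaks with MACS2 2.0.10.20130520 at p = 0.001 with Nlrc5-/- reads as control; the submitters' processing notes also name CASAVA 1.8.2. Each deposited list gives intervals and a score, the −log10 p-value of the authors' peak calls, a unit inferred from lowest scores slightly above 3. The methods state the same number of reads for each pseudo-replicate and a minimum for the other samples, but the lists give no reads per peak, so no interval could be set on a score.

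Peaks were matched to GENCODE M21 TSSs within 5 kb. Peaks of all 7 lists that overlapped by at least 1 bp were merged into sites. Weight matrices of the 9 strong modules (pseudocount 1) were scanned over GRCm38.p6 promoters. Windows of 50 bases were called unique where the primary assembly held no other copy on either strand. The placement of modules, the merging of sites and the copy counts were tested on simulated data. Named sites follow a rule: the 3 sites nearest to each gene in log2 score and the nearest peak outside 5 kb. Python 3.11.15, numpy 2.4.6, Biopython 1.88 and matplotlib 3.10.9 were used. No test was run, since the selection used the contrast and each genotype had 1 library. Alternatives were other distances, score minimums, windows and matrices, and leaving out each pseudo-replicate in turn.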

Additional observations from a re-analysis of the deposited data

How the results depend on the processing

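Of 73 alternatives to 18 results, 66 left the value within a set margin. The margin was the spread of the WT lists, the counting interval, 1.5 times the count or, for module scores, 4.64 bits. The last of these is the standard deviation of the box sums of the 9 strong promoters. Many of the 73 left out 1 pseudo-replicate of the same library and could hardly move, so the 66 say little about replication. With a score of at least 10, H2-M3 had a peak in 3 WT lists and H2-K2 in 2, in place of 5. Within 20 kb of the TSS, 1 of the other lists had a peak near H2-K2 (Rfx5-/-) in place of 0, and none near H2-M3. The median distance of H2-K2 peaks from the TSS was 193.5 bp with the RefSeq TSS and 68 bp from the centre of the X box, an alternative added after the data were seen, in place of 157.5 bp. These changes follow from the settings themselves. Leaving out each pseudo-replicate in turn gave median scores of 9.81 to 10.39 for H2-M3 and 9.80 to 10.09 for H2-K2, median ranks of 26 to 29.5 and 26.5 to 28.5, and median distances of 57.75 to 92.5 bp and 155 to 163.5 bp. Requiring overlap of 50% of both intervals in every pair of lists left 28 of 32 sites, H2-K2 among them and H2-M3 not. With windows of 36 bases, 84.2% of those under the H2-M3 peaks were unique, in place of 88.6%, and with the bases common to all peaks 100%. Without H2-T promoters in the matrix, H2-M3 and H2-K2 were 9th and 6th of all promoters, and with a pseudocount of 0.1 they were 13th and 11th. Reads per peak are not in the lists, which limits what absence from a list shows. No paired analysis was possible, since each genotype had 1 library of pooled mice and the WT lists are read subsets of 1 library.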
